A study of Mus musculus with 12 samples.

Results

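The genes described here are 49 genes for the uptake, activation and oxidation of fatty acids, together with the nuclear receptors of the PPAR family and their partner Rxra, out of 24421 gene symbols counted in 12 RNA libraries. They were taken by symbol from a list whose rule names no measured value, and all 49 were found. The list itself was chosen with earlier results of these data known. The libraries came from Min6, a mouse insulinoma cell line that makes and secretes insulin and is used as a model of the pancreatic beta cell. In 6 libraries (sh-Il22ra1) the cells, wild type by their labels, had been infected for 48 h with an adenovirus that expresses a hairpin against Il22ra1, a subunit of the receptor for interleukin-22. In the other 6 (sh-ctrl) they had been infected for 48 h with the control adenovirus. All 12 samples also received 0.3 mM palmitate (PA), a saturated fatty acid, for 24 h before harvest. Values therefore compare the hairpins in palmitate-treated cells, and an effect of palmitate itself was not analysed here. No label states that samples of one group were grown separately; p-values thus reflect the spread among these samples alone, and part of it may be technical.

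A fatty acid that enters a cell is bound by carrier proteins, joined to coenzyme A by an acyl-CoA synthetase and, for entry into mitochondria, moved to carnitine and back by carnitine acyltransferases. Mitochondrial beta-oxidation then shortens the chain in repeated rounds of dehydrogenation, hydration, a further dehydrogenation and thiolysis, and passes electrons to the respiratory chain. Peroxisomes run a parallel route that begins with an oxidase and handles very long and branched chains. PPARs are nuclear receptors that bind fatty acids and, as dimers with RXR, switch on many of these genes. Palmitate is used on beta cells as a model of lipid overload, and oxidation is one of its fates there besides storage in triglyceride.

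Reads assigned to genes numbered 14408576 to 15595603 in sh-Il22ra1 libraries and 13108494 to 15887448 in sh-ctrl libraries. Il22ra1 itself had 15 reads over the sh-Il22ra1 group and 74 over the sh-ctrl group, a ratio of 0.197 per library size with a 95% interval (counting error alone) of 0.105 to 0.346. For sh-Il22ra1 replicates 2 to 6 the treatment label reads sh-Il22ra2 to sh-Il22ra6, while the titles and the protocol put all 6 in 1 group. The groups were separated by the first principal component (54.4% of the variance), and the sh-ctrl libraries were spread along the second (13.7%), with replicates 1 (18.2) and 4 (31.9) at one end and replicates 2 (-17.7) and 6 (-16.2) at the other. Reads without an alignment made up 8.71% to 11.8% of sh-Il22ra1 files and 12.8% to 17.3% of sh-ctrl files. Reads that fell in more than 1 gene made up 2.00% to 2.13% of sh-Il22ra1 files and 1.81% to 1.93% of sh-ctrl files. Both shares moved with the groups, and their part in the results was not tested. Beta-cell markers summed to 63550 to 72710 CPM in sh-Il22ra1 libraries and 70960 to 107800 CPM in sh-ctrl libraries, and all 9 of them were detected. The highest was Ins2, an insulin gene, at means of 42840 CPM in sh-Il22ra1 and 49550 CPM in sh-ctrl libraries. In the test described below 5 of the 9 fell, 1 rose and 3 did not pass (66.7% called, beside 51.9% of all tested genes). CPM here is reads per 1000000 gene reads after TMM scaling of the libraries.

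Most of the oxidation genes changed, in both directions and by small amounts, while the receptors fell. Of the 49 genes, 43 passed the filter on low counts; 15 rose in sh-Il22ra1, 12 fell and 16 did not pass the test. The test was the quasi-likelihood F test of edgeR, adjusted by Benjamini-Hochberg over all 13102 tested genes at a threshold of 0.05. Every adjusted p below comes from it unless another setting is named. Over all tested genes 51.9% passed, 25.4% higher and 26.5% lower, so a call on one of these genes is common in this comparison and their share of 62.8% is to be read against that. The median log2 fold change (sh-Il22ra1 over sh-ctrl) of the 43 genes was 0.039, beside -0.0042 over all tested genes, and the median size of the change was 0.278 beside 0.259. In 15 of the 43 genes the 6 libraries of one group all lay above the 6 of the other, beside 28.1% of all tested genes. The direction and the call held in all 21 alternative settings for 22 genes, 11 higher and 11 lower.

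**Figure D1:**
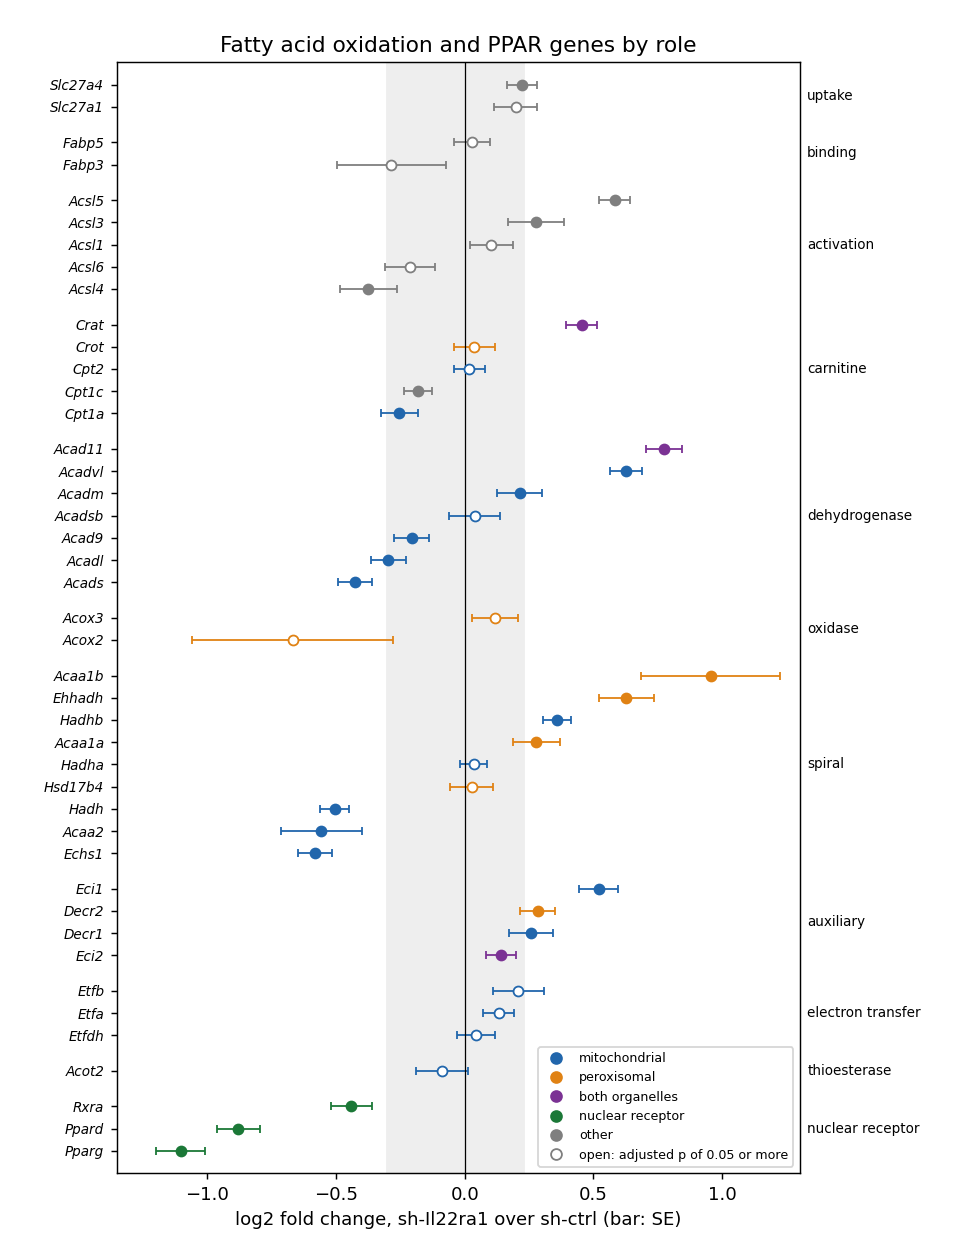
Log2 fold change of each of the 43 tested genes, sh-Il22ra1 over sh-ctrl (x axis), with genes grouped down the page by their role; points are estimates (filled where the adjusted p is below 0.05), bars their standard errors with 6 libraries a group, colours the location, and the grey band the middle of all tested genes, from the 25th to the 75th percentile (-0.303 to 0.229). The 3 nuclear receptors sit left of 0, the 4 auxiliary enzymes right of it, and dehydrogenases and enzymes of the beta-oxidation spiral lie on both sides.

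All 3 tested nuclear receptors fell, and Pparg and Ppard fell further than any other gene of the set that passed the test. Pparg, the receptor known as the master regulator of fat cell formation, ranged from 7.45 to 10.2 CPM with a median of 8.41 in sh-Il22ra1 libraries, against 17 to 20.5 CPM with a median of 18.8 in sh-ctrl libraries. Its highest sh-Il22ra1 library lay well below its lowest sh-ctrl library. It fell 2.15-fold, with a log2 fold change of -1.10 (SE 0.0953, adjusted p = 2.8e-08). Ppard, the widely expressed family member that promotes fatty acid oxidation in muscle, ranged from 21.1 to 22.6 CPM with a median of 22.1 in sh-Il22ra1 libraries, against 32.8 to 47.4 CPM with a median of 40.8 in sh-ctrl libraries. The sh-Il22ra1 values of Ppard were tightly grouped and the sh-ctrl values spread widely above them, and the fall was 1.84-fold (log2 fold change -0.88, SE 0.0826, adjusted p = 8.19e-08). Rxra, the retinoid X receptor that pairs with PPARs to bind DNA, ranged from 59.9 to 70.9 CPM with a median of 66.1 in sh-Il22ra1 libraries, against 75.2 to 102 CPM with a median of 90.9 in sh-ctrl libraries. These groups did not overlap either. Rxra fell by 0.44 on the log2 scale (SE 0.0795, adjusted p = 0.000158); with offsets for transcript length and GC content the log2 fold change was smaller, at -0.22 with an adjusted p of 0.00118.

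Ppara, the PPAR that drives fatty acid oxidation in liver, was near the limit of detection. It had 19 reads over the sh-Il22ra1 group, 1 to 8 a library, and 14 over the sh-ctrl group, 0 to 4 a library, under the low-count filter. The ratio per library size was 1.32, with a 95% interval of 0.626 to 2.84 from counting error only, so a difference was not detectable at this depth. Per length of transcript, in RPKM (CPM per 1000 bases of the longest coding transcript), the 3 PPARs summed to 10 to 11.7 in sh-Il22ra1 libraries and 19.8 to 23.4 in sh-ctrl libraries. Ppard held the larger share of that sum, with a median of 62.5% in sh-Il22ra1 and 59.6% in sh-ctrl libraries. Pparg followed with 37.2% in sh-Il22ra1 and 40.3% in sh-ctrl libraries, so the ranges of these shares overlapped while the sum was lower in all sh-Il22ra1 libraries.

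**Figure D2:**
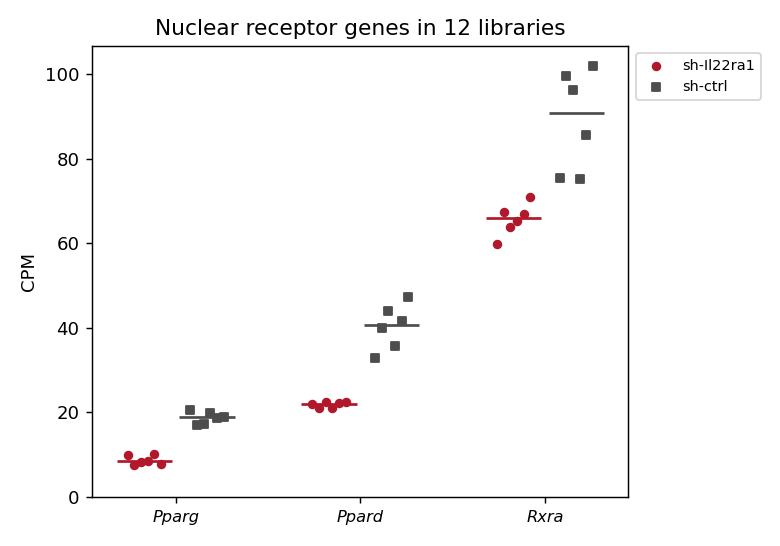
CPM of Pparg, Ppard and Rxra in each of the 12 libraries, with sh-Il22ra1 left of sh-ctrl; each point is 1 library and the line is the group median. The sh-Il22ra1 libraries of Pparg, Ppard and Rxra all lie below the sh-ctrl libraries, with medians of 8.41 against 18.8, 22.1 against 40.8 and 66.1 against 90.9 CPM.

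Pparg is also abundant in fat cells and macrophages, so markers of those cells are given beside it. The 5 adipocyte markers summed to 0.260 to 2.46 CPM in sh-Il22ra1 libraries and 0.518 to 0.667 CPM in sh-ctrl libraries, and Lep had no read in either group. The 5 leukocyte markers summed to 5.83 to 9.70 CPM in sh-Il22ra1 libraries and 18.6 to 27.1 CPM in sh-ctrl libraries. Most of that was Cd68, a lysosomal membrane protein, at a mean of 6.17 CPM in sh-Il22ra1 and 22.0 CPM in sh-ctrl libraries. Lyz2, a macrophage lysozyme, had means of 1.03 CPM in sh-Il22ra1 and 0.863 CPM in sh-ctrl libraries (log2 fold change 0.31, SE 0.455, adjusted p = 0.588). The means of Ptprc, Adgre1 and Csf1r did not pass 0.131 CPM in sh-Il22ra1 or 0.102 CPM in sh-ctrl libraries. The 5 fibroblast markers summed to 1.04 to 2.12 CPM in sh-Il22ra1 libraries and 3.09 to 6.34 CPM in sh-ctrl libraries. The 4 hormones of other islet cells, mostly Gcg, summed to 145 to 158 CPM in sh-Il22ra1 libraries and 243 to 294 CPM in sh-ctrl libraries, and the part of these differences in the results was not tested. All libraries came from the Min6 line, and whether any of these marker reads came from another cell type was not tested. In bulk RNA, fewer cells of a type and less RNA per cell cannot be told apart.

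The sequences upstream of the receptor starts are shown because these genes fell together and because Pparg has several starts. RefSeq windows of 250 bases before to 50 bases after a start (GRCm38.p6) were matched for 41 of the 49 genes and searched on both strands for AGGTCA, the 6-base core that PPAR, RXR and related receptors recognise. The bases before the start are printed 5′ to 3′ in the direction of transcription, with the core and its reverse complement in capitals. The first Pparg window is chr6:115360894-115361143, plus strand, and holds the core 28 bases before the start. The second is chr6:115362099-115362348, plus strand, with the core 9 bases before the start. The Ppard window, chr17:28232504-28232753 on the plus strand, holds none, and the second Rxra window, chr2:27709042-27709291 on the plus strand, holds 1 on each strand, 87 and 48 bases before the start. The third Pparg window, chr6:115421816-115422065, and the first Rxra window, chr2:27676951-27677200, hold none and are not printed. In GENCODE M21 Pparg begins at base 115360951 and Rxra at base 27676440, so the cores in their windows lie within those gene annotations. Ppard begins there at base 28232700, within its window.
Pparg start 1: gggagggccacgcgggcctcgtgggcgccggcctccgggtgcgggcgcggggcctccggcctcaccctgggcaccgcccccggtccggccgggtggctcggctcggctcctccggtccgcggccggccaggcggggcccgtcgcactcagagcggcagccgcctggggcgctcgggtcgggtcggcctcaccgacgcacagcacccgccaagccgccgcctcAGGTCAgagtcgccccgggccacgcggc
Pparg start 2: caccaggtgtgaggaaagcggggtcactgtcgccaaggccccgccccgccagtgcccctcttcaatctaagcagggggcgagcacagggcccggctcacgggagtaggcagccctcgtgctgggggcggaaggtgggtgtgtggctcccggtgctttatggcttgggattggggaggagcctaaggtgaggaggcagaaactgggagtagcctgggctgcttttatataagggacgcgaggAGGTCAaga
Ppard start 1: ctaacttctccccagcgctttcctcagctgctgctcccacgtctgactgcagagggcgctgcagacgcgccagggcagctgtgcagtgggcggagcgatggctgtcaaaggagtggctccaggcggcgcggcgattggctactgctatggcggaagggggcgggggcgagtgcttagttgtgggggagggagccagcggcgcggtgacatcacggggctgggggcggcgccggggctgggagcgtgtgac
Rxra start 2: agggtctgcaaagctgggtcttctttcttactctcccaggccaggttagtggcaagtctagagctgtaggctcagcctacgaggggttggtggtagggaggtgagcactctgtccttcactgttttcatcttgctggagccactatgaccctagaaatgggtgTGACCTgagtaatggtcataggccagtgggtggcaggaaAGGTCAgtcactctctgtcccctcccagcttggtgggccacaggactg

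The receptor windows differ in composition: G and C make up 82.4%, 63.6% and 40.8% of the 3 Pparg windows in order, 81.2% and 55.2% of the 2 Rxra windows and 69.6% of the Ppard window. Counting every matched start, 10 of the 41 genes hold AGGTCA in the 300-base window: Acadm, Acadvl, Acsl6, Cd36, Cpt1a, Cpt1c, Echs1, Pparg, Rxra and Slc27a2. Among all 27025 genes with a window 18.1% hold it, and among the 10008 of these that were tested 14.7%. Of these 10 genes 2 rose (Acadm and Acadvl), 5 fell (Cpt1a, Cpt1c, Echs1, Pparg and Rxra), Acsl6 did not pass the test, and Cd36 and Slc27a2 were under the low-count filter. Beside this, 25.4% of all tested genes rose and 26.5% fell, and a link between AGGTCA and direction was not tested. The Acadm call held in 10 of 21 alternative settings, and the Cpt1c call was lost with length and GC offsets. The arrangement that PPAR-RXR dimers bind, a direct repeat of AGGTCA with 1 base between the copies, was in none of the 41 genes and in 0.0481% of all genes. TCAAGGTCA, the extended core of estrogen-related receptors, which itself contains AGGTCA, was in 1 of the 41, Acsl6, in 0.466% of all genes and in 0.34% of tested genes. A match describes letters only, and a missing match says only that these letters are not in this window.

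Of the genes for fatty acid uptake, 1 rose. Slc27a4, a fatty acid transport protein with acyl-CoA synthetase activity, ranged from 139 to 163 CPM with a median of 152 in sh-Il22ra1 libraries, against 118 to 144 CPM with a median of 128 in sh-ctrl libraries. The groups overlapped, and the log2 fold change was 0.22 (SE 0.0586, adjusted p = 0.00362); with length and GC offsets it was 0.39. Slc27a1, a second transporter of the family, had a log2 fold change of 0.20 (SE 0.0838, adjusted p = 0.0555) and did not pass. It passed without sh-ctrl replicate 3 (adjusted p = 0.0441) and without sh-ctrl replicate 5 (adjusted p = 0.022), with DESeq2 (adjusted p = 0.046) and with length and GC offsets (log2 fold change 0.31, adjusted p = 0.00147). Per length, Slc27a4 made up a median of 80.9% of the 3 listed transporters in sh-Il22ra1 and 80.7% in sh-ctrl libraries. Cd36, the scavenger receptor that takes up long-chain fatty acids, had 3 reads over the sh-Il22ra1 group, in 2 libraries, and 19 over the sh-ctrl group, in 5. Its ratio of 0.153 had a 95% interval of 0.0290 to 0.521 from counting error only, and the sh-Il22ra1 group was at the floor of 3 reads a group (0.0332 CPM). Cd36 did not pass the filter; in a fit without one it was called lower, with an adjusted p of 0.0316, while Fabp4, Slc27a2, Ppara and Acot1 did not pass there (adjusted p of 0.516 to 0.677). Slc27a2, a very long-chain acyl-CoA synthetase of liver and kidney, had 3 reads in sh-Il22ra1, all in 1 library, and 1 in sh-ctrl.

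The intracellular fatty acid binding proteins did not pass the test. Fabp5, which carries fatty acids in many cell types, made up a median of 91.9% of the listed Fabp sum per length in sh-Il22ra1 and 90.9% in sh-ctrl libraries. It had a log2 fold change of 0.028 (SE 0.0707, adjusted p = 0.763). Fabp3, the form known from heart muscle, had -0.29 (SE 0.211, adjusted p = 0.269) at medians of 2.16 CPM in sh-Il22ra1 and 2.49 CPM in sh-ctrl libraries. Fabp4, the adipocyte form, had 12 reads in sh-Il22ra1, 11 of them in 1 library, and 6 in sh-ctrl.

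Among the 5 long-chain acyl-CoA synthetases, which trap a fatty acid in the cell as acyl-CoA, 2 rose and 1 fell. Acsl5, found on mitochondrial and endoplasmic reticulum membranes, ranged from 218 to 240.1 CPM with a median of 232 in sh-Il22ra1 libraries, against 142 to 175 CPM with a median of 152 in sh-ctrl libraries. Every sh-Il22ra1 library lay above every sh-ctrl library, a rise of 1.5-fold (log2 fold change 0.58, SE 0.0588, adjusted p = 2e-07). Acsl4, which prefers arachidonic acid, ranged from 21.4 to 32.2 CPM with a median of 24.6 in sh-Il22ra1 libraries, against 25.3 to 42.0 CPM with a median of 32.6 in sh-ctrl libraries. Its groups overlapped, and it fell by 0.37 on the log2 scale (SE 0.112, adjusted p = 0.00941), or by 0.21 with length and GC offsets. Acsl3, which works at lipid droplets, had medians of 17.9 CPM in sh-Il22ra1 and 15.1 CPM in sh-ctrl libraries and a log2 fold change of 0.28 (SE 0.108, adjusted p = 0.0385). That rise rested in part on sh-Il22ra1 replicate 1, at 25 CPM; without it the log2 fold change was 0.18 with an adjusted p of 0.113. It also missed the threshold without sh-Il22ra1 replicate 4 or 5 or without sh-ctrl replicate 2, 3 or 6, with adjusted p values of 0.0526 to 0.0858. Acsl1, the main form of liver and fat, had a log2 fold change of 0.10 (SE 0.0839, adjusted p = 0.318). Acsl6, known from brain, had -0.21 (SE 0.0971, adjusted p = 0.0736) and passed without sh-Il22ra1 replicate 6 (adjusted p = 0.0446) or sh-ctrl replicate 2 (adjusted p = 0.031).

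Per length of transcript, the 5 synthetases summed to 68.5 ± 2.87 RPKM in sh-Il22ra1 libraries and 51.2 ± 3.20 RPKM in sh-ctrl libraries (SD, n = 6 each). Acsl5 made up 75.8% to 80.2% of that sum in sh-Il22ra1 libraries, against 67.9% to 74.6% in sh-ctrl libraries, and these ranges did not overlap. Acsl4 took a median of 6.95% of the sum in sh-Il22ra1 and 12.1% in sh-ctrl libraries.

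The carnitine acyltransferases split between a lower entry step and a higher short-chain enzyme. Cpt1a, the liver-type carnitine palmitoyltransferase that sets the rate of fatty acid entry into mitochondria, ranged from 85.9 to 107 CPM with a median of 101 in sh-Il22ra1 libraries, against 105 to 135 CPM with a median of 117 in sh-ctrl libraries. The ranges overlapped slightly. Cpt1a fell by 0.25 on the log2 scale (SE 0.0711, adjusted p = 0.00585), and by 0.17 with length and GC offsets (adjusted p = 0.00712). Cpt1c, a form of neurons with low catalytic activity, ranged from 122 to 142 CPM with a median of 129 in sh-Il22ra1 libraries, against 139 to 156 CPM with a median of 149 in sh-ctrl libraries. It fell by 0.18 (SE 0.0544, adjusted p = 0.00924), and with length and GC offsets it no longer passed (log2 fold change -0.093, adjusted p = 0.0704). Per length, Cpt1c exceeded Cpt1a in both groups, and Cpt1a held a median of 33.4% of their sum in sh-Il22ra1 and 33.5% in sh-ctrl libraries.

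Cpt2, which returns the acyl group to coenzyme A inside the mitochondrion, had overlapping ranges: 58.3 to 63.3 CPM with a median of 60.0 in sh-Il22ra1 libraries and 52.7 to 63.7 CPM with a median of 60.2 in sh-ctrl libraries. Its log2 fold change was 0.018 (SE 0.0590, adjusted p = 0.82), so a difference larger than the spread between libraries was not detected. Crat, carnitine acetyltransferase, works on short chains in mitochondria and peroxisomes. It ranged from 66.2 to 71.3 CPM with a median of 68.1 in sh-Il22ra1 libraries, against 46.1 to 56.8 CPM with a median of 49.6 in sh-ctrl libraries. The groups did not overlap, and Crat rose 1.37-fold (log2 fold change 0.45, SE 0.0592, adjusted p = 4.48e-06). Crot, the peroxisomal octanoyltransferase, had a log2 fold change of 0.038 (SE 0.0813, adjusted p = 0.719). Cpt1b, the muscle form, was listed at 0 in all 12 libraries. So were its neighbour Chkb, a choline kinase, and the combined symbol ChkbCpt1b, and 94.8% of the exon bases of Cpt1b are shared with a readthrough gene in GENCODE M21, so the 0 cannot be read as absence.

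The first step of mitochondrial beta-oxidation showed opposite changes among enzymes that differ in chain length. Acadvl, the very long-chain acyl-CoA dehydrogenase that acts on palmitoyl-CoA, ranged from 197 to 242 CPM with a median of 228 in sh-Il22ra1 libraries, against 133 to 162 CPM with a median of 146 in sh-ctrl libraries. All sh-Il22ra1 libraries lay above all sh-ctrl libraries, and Acadvl rose 1.54-fold (log2 fold change 0.63, SE 0.0611, adjusted p = 1.24e-07). Acads, the short-chain dehydrogenase, ranged from 27.4 to 33.1 CPM with a median of 30.7 in sh-Il22ra1 libraries, against 37.3 to 44.4 CPM with a median of 41.1 in sh-ctrl libraries. Here the sh-ctrl libraries all lay above, and Acads fell 1.34-fold (log2 fold change -0.43, SE 0.0651, adjusted p = 2.67e-05). Acadl, the long-chain dehydrogenase, ranged from 48.0 to 56.5 CPM with a median of 52.0 in sh-Il22ra1 libraries, against 56.2 to 69.7 CPM with a median of 66.6 in sh-ctrl libraries. It fell by 0.30 on the log2 scale (SE 0.0682, adjusted p = 0.00138), with ranges that overlapped slightly. Acadm, the medium-chain dehydrogenase, had medians of 19.1 CPM in sh-Il22ra1 and 16.7 CPM in sh-ctrl libraries and rose by 0.21 (SE 0.0868, adjusted p = 0.0465), a call that held in 10 of 21 alternative settings. It was lost without any one of sh-Il22ra1 replicates 1, 3, 4, 5 and 6 and sh-ctrl replicates 2, 3 and 6, at adjusted p values of 0.0599 to 0.117.

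Per length, these 4 straight-chain dehydrogenases summed to 157 ± 6.73 RPKM in sh-Il22ra1 libraries and 131 ± 8.43 RPKM in sh-ctrl libraries (SD, n = 6 each). Acadvl took 62.9% to 68.3% of the sum in sh-Il22ra1 libraries, against 49.8% to 52.5% in sh-ctrl libraries. Acadl took a median of 17.2% in sh-Il22ra1 and 25.4% in sh-ctrl libraries, and Acads 10.2% in sh-Il22ra1 and 16.6% in sh-ctrl libraries. Acadm took 5.81% in sh-Il22ra1 and 6.07% in sh-ctrl libraries.

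**Figure D3:**
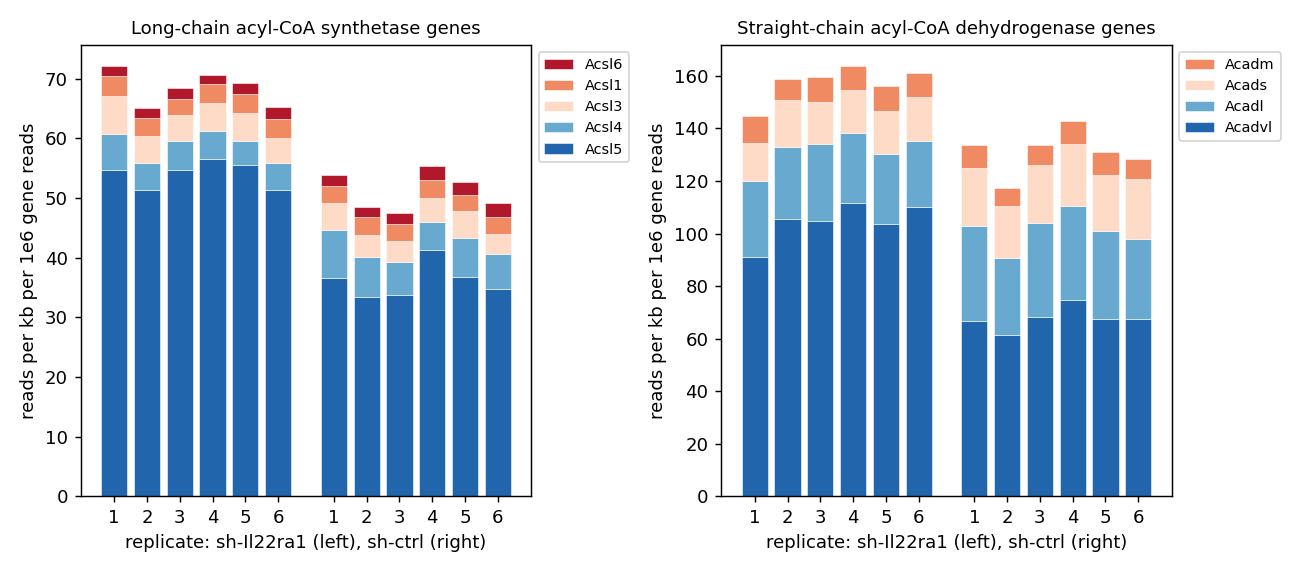
Reads per kilobase per 1000000 gene reads (RPKM, y axis from 0) of 5 long-chain acyl-CoA synthetase genes (left panel) and 4 straight-chain acyl-CoA dehydrogenase genes (right panel), stacked for each library, with the 6 sh-Il22ra1 libraries left of the 6 sh-ctrl libraries. Acsl5 and Acadvl make up the lowest and largest segments and are taller in all sh-Il22ra1 libraries, where Acsl5 takes 75.8% to 80.2% of its stack and Acadvl 62.9% to 68.3%, against 67.9% to 74.6% and 49.8% to 52.5% in sh-ctrl libraries.

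The Acadvl value has a counting limit. In GENCODE M21 45.0% of its exon bases are shared with Dvl2, a Wnt signalling gene on the opposite strand, and whether the authors counted by strand is not given in the sources used here. Dvl2, which was looked up after the Acadvl values were seen, ranged from 58.8 to 64.6 CPM in sh-Il22ra1 libraries, against 111 to 118 CPM in sh-ctrl libraries (log2 fold change -0.86, SE 0.0508, adjusted p = 1.9e-10). Reads in the shared stretch cannot be assigned to one gene without the strand, and the part of Dvl2 in the Acadvl value was not tested. In GRCm38 Acadvl occupies bases 70010183 to 70015411 of chromosome 11 (minus strand). Its upstream window, chr11:70015429-70015678 on the minus strand, is printed with that of Echs1, chr7:140116422-140116671 on the minus strand, because they are the mitochondrial enzymes with the largest rise and the largest fall. Both hold AGGTCA once, in capitals, at 87 bases before the start in Acadvl and 83 in Echs1.
Acadvl start 1: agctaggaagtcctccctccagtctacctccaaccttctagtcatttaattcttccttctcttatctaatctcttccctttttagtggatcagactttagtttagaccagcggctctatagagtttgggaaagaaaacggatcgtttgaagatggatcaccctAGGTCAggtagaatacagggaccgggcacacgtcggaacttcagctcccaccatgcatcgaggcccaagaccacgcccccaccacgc
Echs1 start 1: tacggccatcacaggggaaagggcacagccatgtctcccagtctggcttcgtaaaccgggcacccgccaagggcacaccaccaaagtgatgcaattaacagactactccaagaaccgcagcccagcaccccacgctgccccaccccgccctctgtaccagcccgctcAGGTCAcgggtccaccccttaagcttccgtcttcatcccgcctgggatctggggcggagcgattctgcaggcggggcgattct

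Of the other dehydrogenases, Acad11, which acts on long chains and is placed in both mitochondria and peroxisomes, had the largest rise. It ranged from 50.6 to 59.2 CPM with a median of 55.7 in sh-Il22ra1 libraries, against 29.7 to 37.1 CPM with a median of 31.0 in sh-ctrl libraries, and the groups lay far apart. The rise was 1.71-fold (log2 fold change 0.77, SE 0.0713, adjusted p = 6.38e-08); 13.0% of its exon bases are shared with other genes, 4.1% on the same strand. Acad9, which also assembles respiratory complex I, ranged from 24.3 to 28.3 CPM with a median of 27.4 in sh-Il22ra1 libraries, against 28.5 to 34.7 CPM with a median of 31.2 in sh-ctrl libraries. These groups did not overlap although the fall was only 0.21 on the log2 scale (SE 0.0683, adjusted p = 0.0167). Acadsb, for branched short chains, had a log2 fold change of 0.039 (SE 0.1, adjusted p = 0.765).

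After the first dehydrogenation, the separate matrix enzymes fell. Echs1, the short-chain enoyl-CoA hydratase, ranged from 53.8 to 62.3 CPM with a median of 56.5 in sh-Il22ra1 libraries, against 75.7 to 97.9 CPM with a median of 85.0 in sh-ctrl libraries. The groups did not overlap, and Echs1 fell 1.5-fold (log2 fold change -0.58, SE 0.0665, adjusted p = 8.98e-07). Hadh, the short-chain hydroxyacyl-CoA dehydrogenase, is highly expressed in beta cells, where it also restrains insulin secretion by inhibiting glutamate dehydrogenase. It ranged from 78.6 to 94.7 CPM with a median of 86.5 in sh-Il22ra1 libraries, against 114 to 124 CPM with a median of 123 in sh-ctrl libraries. All sh-ctrl libraries lay above the sh-Il22ra1 libraries, and Hadh fell 1.42-fold (log2 fold change -0.505, SE 0.0570, adjusted p = 7.72e-07). Acaa2, the mitochondrial thiolase for medium and short chains, was low, at 2.93 to 4.94 CPM with a median of 3.22 in sh-Il22ra1 libraries, against 4.34 to 6.77 CPM with a median of 4.95 in sh-ctrl libraries. Its groups overlapped, and it fell 1.47-fold (log2 fold change -0.56, SE 0.159, adjusted p = 0.00688).

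The trifunctional protein, which carries out the last 3 steps on long chains in the inner membrane, gave a rise in 1 of its 2 subunit genes. Its alpha subunit gene Hadha ranged from 181 to 202 CPM with a median of 192 in sh-Il22ra1 libraries and from 173 to 199 CPM with a median of 189 in sh-ctrl libraries, with a log2 fold change of 0.035 (SE 0.0523, adjusted p = 0.596). Its beta subunit gene Hadhb, the thiolase, ranged from 94.7 to 107 CPM with a median of 96.4 in sh-Il22ra1 libraries, against 71.3 to 82.2 CPM with a median of 76.0 in sh-ctrl libraries. The Hadhb groups did not overlap, a rise of 1.28-fold (log2 fold change 0.36, SE 0.0557, adjusted p = 3.2e-05). The ratio of Hadha to Hadhb in CPM was 1.86 to 2.11 in sh-Il22ra1 libraries and 2.10 to 2.66 in sh-ctrl libraries, so it overlapped only at the ends of the ranges. The log2 ratio averaged 0.96 ± 0.067 in sh-Il22ra1 and 1.28 ± 0.127 in sh-ctrl libraries (SD, n = 6 each). The ratio was singled out after its values were seen, and the difference between the subunits was not tested.

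The sequence upstream of both RefSeq starts is shown because the 2 genes are transcribed in opposite directions from neighbouring starts. On chromosome 5 of GRCm38.p6 the RefSeq starts lie at 30154980 for Hadha, on the minus strand, and 30155253 for Hadhb, on the plus strand, with 272 bases between them. The stretch that is upstream of both within 250 bases is chr5:30155003-30155230, given on the plus strand, 57.0% G and C and without AGGTCA; in GENCODE M21 the Hadha gene reaches to 30155162, so part of it lies within that annotation of Hadha.
Hadha and Hadhb shared: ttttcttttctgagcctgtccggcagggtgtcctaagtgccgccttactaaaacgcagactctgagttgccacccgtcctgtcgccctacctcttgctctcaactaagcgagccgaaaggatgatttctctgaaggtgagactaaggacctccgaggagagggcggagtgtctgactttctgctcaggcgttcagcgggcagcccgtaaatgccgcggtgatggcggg

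**Figure D4:**
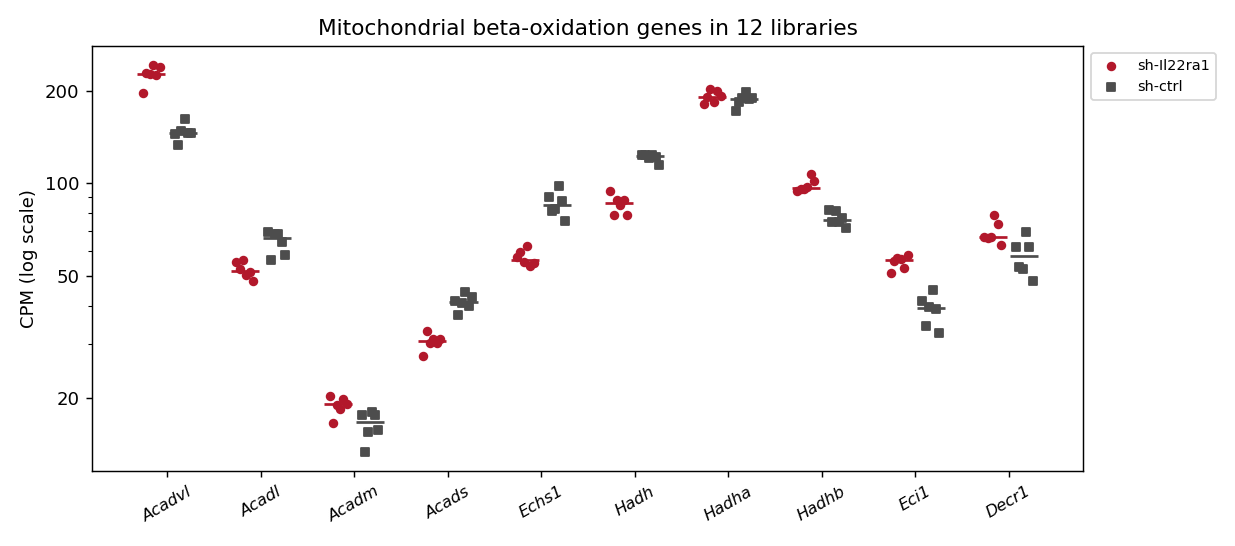
CPM on a log scale of 10 genes of mitochondrial beta-oxidation in each library, with sh-Il22ra1 left of sh-ctrl; points are libraries and lines group medians. Acadvl, Hadhb and Eci1 lie higher and Acads, Echs1 and Hadh lower across all sh-Il22ra1 libraries, with no overlap between the groups, and the Hadha groups overlap.

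The 4 auxiliary enzymes, which move or remove double bonds so that unsaturated fatty acids can pass through the spiral, all rose. Eci1, the mitochondrial enoyl-CoA isomerase, ranged from 51.2 to 58.3 CPM with a median of 56.3 in sh-Il22ra1 libraries, against 32.6 to 45.0 CPM with a median of 39.3 in sh-ctrl libraries. It was the member of this group whose libraries did not overlap, and it rose 1.43-fold (log2 fold change 0.52, SE 0.0755, adjusted p = 1.49e-05). Decr2, the peroxisomal dienoyl-CoA reductase, ranged from 43.0 to 54.1 CPM with a median of 50.4 in sh-Il22ra1 libraries, against 37.4 to 43.7 CPM with a median of 41.1 in sh-ctrl libraries (log2 fold change 0.28, SE 0.0667, adjusted p = 0.00163). Decr1, the mitochondrial reductase, rose by 0.26 (SE 0.0848, adjusted p = 0.0165), with medians of 66.8 CPM in sh-Il22ra1 and 57.8 CPM in sh-ctrl libraries. Eci2, an isomerase of both organelles, rose by 0.14 (SE 0.0578, adjusted p = 0.0483), a call that held in 9 of 21 alternative settings. It was lost without any one of sh-Il22ra1 replicates 1, 3, 4, 5 and 6 and sh-ctrl replicates 2, 3, 5 and 6, at adjusted p values of 0.057 to 0.11.

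The genes that pass electrons from the dehydrogenases to the respiratory chain did not pass the test. Etfb, the beta subunit of the electron transfer flavoprotein, was the most abundant of the 49 genes per length, at 184 ± 15.6 RPKM in sh-Il22ra1 and 159 ± 30.7 RPKM in sh-ctrl libraries (SD, n = 6 each). It had a log2 fold change of 0.21 (SE 0.0997, adjusted p = 0.0883), and its sh-ctrl values were spread from 117 to 186 CPM. The highest were sh-ctrl replicates 1 and 4, at one end of the second component, and the lowest replicates 2 and 6, at the other. Etfb passed without replicate 1 (adjusted p = 0.0417), without replicate 4 (adjusted p = 0.00453) and without both, where the log2 fold change was 0.37 (adjusted p = 1.34e-05). With length and GC offsets Etfb passed as well (log2 fold change 0.18, adjusted p = 0.00223). In GENCODE M21 69.1% of Etfb exon bases are shared with Gm45233 on the same strand, a symbol not among those counted. The part of this overlap in the Etfb level was not tested. Etfa, the alpha subunit, had 0.13 (SE 0.0593, adjusted p = 0.0701). It passed without sh-ctrl replicate 4 (adjusted p = 0.0496), without sh-ctrl replicates 1 and 4 (adjusted p = 0.049) and with DESeq2 (adjusted p = 0.0487). Etfdh, the oxidoreductase that hands the electrons to ubiquinone, had 0.043 (SE 0.0745, adjusted p = 0.651).

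In the peroxisome, the bifunctional enzyme and the thiolases rose while the oxidases did not pass. Ehhadh, which hydrates and dehydrogenates acyl chains after the oxidase step and is a classical PPAR target in liver, ranged from 10.3 to 14.9 CPM with a median of 13.5 in sh-Il22ra1 libraries, against 6.87 to 10 CPM with a median of 8.63 in sh-ctrl libraries. The groups did not overlap, and it rose 1.55-fold (log2 fold change 0.63, SE 0.107, adjusted p = 8.68e-05). Acaa1a, the peroxisomal thiolase, ranged from 71.5 to 89.6 CPM with a median of 77.9 in sh-Il22ra1 libraries, against 55.9 to 87.1 CPM with a median of 62.3 in sh-ctrl libraries. Its log2 fold change was 0.28 (SE 0.0923, adjusted p = 0.0168), and without sh-Il22ra1 replicate 6 it was 0.24 with an adjusted p of 0.0535. Acaa1b, a nearly identical copy, was counted at 1.17 to 2.33 CPM in sh-Il22ra1 libraries and 0.231 to 0.941 CPM in sh-ctrl libraries (log2 fold change 0.955, SE 0.271, adjusted p = 0.00633). Reads of the 2 copies may be split by the counting, so the Acaa1b value is uncertain.

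Acox3, the oxidase for branched chains, had a log2 fold change of 0.12 (SE 0.0893, adjusted p = 0.281) at medians of 23.7 CPM in sh-Il22ra1 and 22.4 CPM in sh-ctrl libraries. It passed only with length and GC offsets (log2 fold change 0.20, adjusted p = 0.0248). Acox2, the oxidase for bile acid intermediates and branched chains, was low, with medians of 0.650 CPM in sh-Il22ra1 and 0.645 CPM in sh-ctrl libraries, and did not pass (log2 fold change -0.67, SE 0.389, adjusted p = 0.159). Its sh-ctrl replicates 1 and 4 held 27 and 26 reads, the other sh-ctrl libraries 8 to 10, and without those 2 libraries the log2 fold change was 0.10 (adjusted p = 0.814). Hsd17b4, the second bifunctional enzyme, had 0.027 (SE 0.0830, adjusted p = 0.805).

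**Figure D5:**
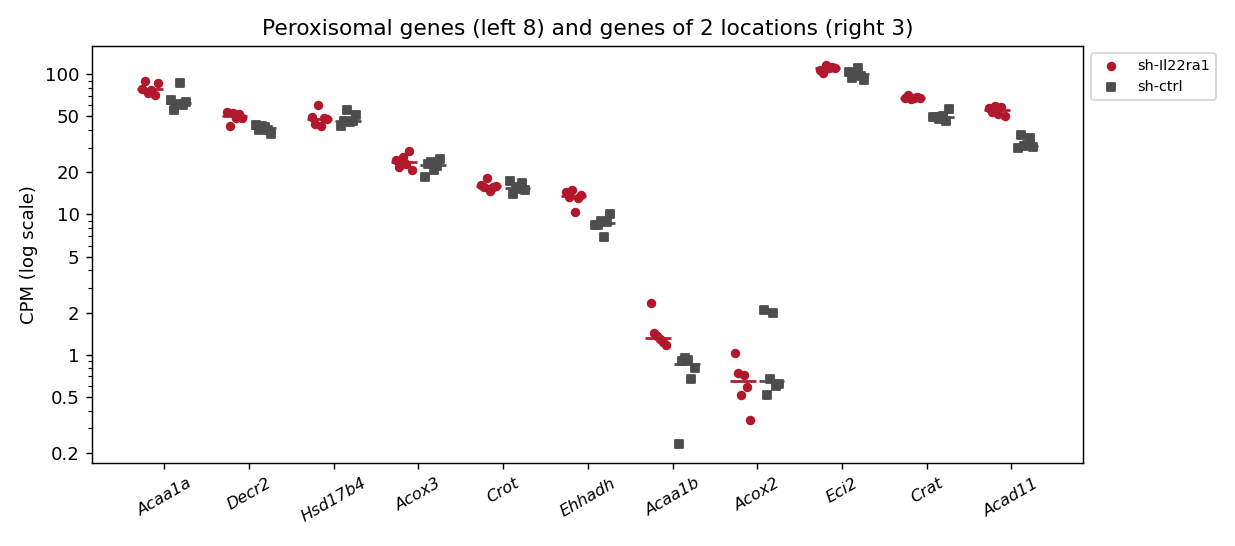
CPM on a log scale of peroxisomal genes and of genes placed in both organelles in each library, with sh-Il22ra1 left of sh-ctrl; points are libraries and lines group medians. Ehhadh, Acad11 and Crat lie higher across all sh-Il22ra1 libraries, with no overlap between the groups, and the ranges of Hsd17b4, Acox3 and Crot overlap.

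Set side by side, called genes of the mitochondrial list went both ways and those of the peroxisomal list one way. Of 19 tested mitochondrial genes 5 rose, 7 fell and 7 did not pass, with a median log2 fold change of 0.035. Of 8 tested peroxisomal genes 4 rose, none fell and 4 did not pass, with a median of 0.198; with Eci2, Crat and Acad11, which are placed in both, 7 of 11 rose and the median was 0.278. Called in either direction were 63.2% of the tested mitochondrial and 50% of the tested peroxisomal genes. Over all tested genes 51.9% were called, 25.4% higher and 26.5% lower. Of the peroxisomal calls, that of Acaa1a was lost without sh-Il22ra1 replicate 6, and the Acaa1b value is uncertain. The difference between the lists was not tested. Summed per length, mitochondrial genes reached 719 to 767 RPKM in sh-Il22ra1 libraries and 652 to 786 RPKM in sh-ctrl libraries, ranges that overlap. The peroxisomal sum was 97.0 to 106 RPKM in sh-Il22ra1 libraries and 81.0 to 99.1 RPKM in sh-ctrl libraries. The ratio of the sums, mitochondrial over peroxisomal, was 6.83 to 7.87 in sh-Il22ra1 and 7.49 to 8.54 in sh-ctrl libraries, overlapping. Single genes weigh heavily in these sums. Etfb alone ranged from 162.8 to 204.6 RPKM in sh-Il22ra1 and 131.5 to 207.9 RPKM in sh-ctrl libraries. Acaa1a ranged from 40.6 to 50.9 RPKM in sh-Il22ra1 and 31.7 to 49.4 RPKM in sh-ctrl libraries.

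Of the 2 listed thioesterases, which release free fatty acid from acyl-CoA, 1 was tested and did not pass. Thioesterases outside the list are not counted here. Acot2, the mitochondrial form, had a log2 fold change of -0.088 (SE 0.101, adjusted p = 0.484). Acot1, its nearly identical cytosolic copy, had 17 reads over the sh-Il22ra1 group and 24 over the sh-ctrl group, under the low-count filter.

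Spread between libraries was small for most of these genes. Over the 40 genes with at least 5 CPM in sh-ctrl, the median coefficient of variation was 7.01% in sh-Il22ra1 and 9.21% in sh-ctrl libraries. Replicates 1 and 4 of sh-ctrl were each the highest or lowest of their group for 21 of the 43 tested genes, more often than any other library. Without both, 17 of the 43 rose and 12 fell.

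Genes outside the list that PPARs are known to control moved in both directions. Of 28 such target genes 15 were tested, and 4 rose and 8 fell (80% called, beside 51.9% of all tested genes), with a median log2 fold change of -0.27. Fgf21, a secreted metabolic hormone, ranged from 13.1 to 18.7 CPM in sh-Il22ra1 libraries, against 5.85 to 7.77 CPM in sh-ctrl libraries, a rise of 1.11 on the log2 scale (SE 0.106, adjusted p = 1.05e-07). Slc25a20, which carries acylcarnitine across the inner membrane between the steps of Cpt1a and Cpt2, had medians of 72.6 CPM in sh-Il22ra1 and 57.9 CPM in sh-ctrl libraries and rose by 0.33 (SE 0.0655, adjusted p = 0.00042). Plin2, a lipid droplet coat protein, rose by 0.30 (SE 0.0851, adjusted p = 0.00693). Mgll, monoacylglycerol lipase, fell furthest and had medians of 0.702 CPM in sh-Il22ra1 and 2.72 CPM in sh-ctrl libraries (log2 fold change -2.17, SE 0.254, adjusted p = 1.21e-06). Lpl, lipoprotein lipase, fell too, with medians of 4.57 CPM in sh-Il22ra1 and 12.0 CPM in sh-ctrl libraries (log2 fold change -1.25, SE 0.166, adjusted p = 5.49e-06). Gpd1, glycerol-3-phosphate dehydrogenase, fell by 0.57 (SE 0.0663, adjusted p = 1.02e-06). Angptl4, a secreted inhibitor of lipoprotein lipase, was low in both groups, with medians of 0.4 CPM in sh-Il22ra1 and 1.36 CPM in sh-ctrl libraries, and fell by 1.49 (SE 0.309, adjusted p = 0.000553). Pdk4, the pyruvate dehydrogenase kinase that PPARs induce in muscle and liver, had 0 reads in all libraries.

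Among 21 partners and coregulators of these receptors, 19 were tested, 4 rose and 4 fell (42.1%, below the 51.9% of all tested genes). Esrra, the estrogen-related receptor that controls mitochondrial oxidation genes, ranged from 72.5 to 95.3 CPM with a median of 86.6 in sh-Il22ra1 libraries, against 42.1 to 46.8 CPM with a median of 44.9 in sh-ctrl libraries. It rose 1.92-fold (log2 fold change 0.94, SE 0.0692, adjusted p = 3.27e-09), with no overlap. Rxrb, a second retinoid X receptor, rose while Rxra fell, with medians of 143 CPM in sh-Il22ra1 and 95.8 CPM in sh-ctrl libraries (log2 fold change 0.56, SE 0.0670, adjusted p = 1.6e-06). Hnf4a, a nuclear receptor of liver and beta cells, fell by 0.85 (SE 0.103, adjusted p = 1.77e-06). Ppargc1a, the coactivator of mitochondrial oxidation genes, had medians of 5.21 CPM in sh-Il22ra1 and 7.51 CPM in sh-ctrl libraries and a log2 fold change of -0.44 (SE 0.173, adjusted p = 0.0392). That call held in 12 of 21 alternative settings and was lost without any one of 8 libraries, sh-Il22ra1 replicates 2, 3, 4 and 6 and sh-ctrl replicates 2, 3, 5 and 6. It was also lost with length and GC offsets (log2 fold change -0.26, adjusted p = 0.0977).

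A further 46 genes for fatty acid activation, binding and mitochondrial steps gave 13 higher and 5 lower of 36 tested (50%, about the 51.9% of all tested genes), with a median log2 fold change of 0.087. Slc22a5, the carnitine transporter of the cell membrane, rose 2.04-fold, with medians of 10.5 CPM in sh-Il22ra1 and 5.04 CPM in sh-ctrl libraries (log2 fold change 1.03, SE 0.103, adjusted p = 1.73e-07). Acad12, an acyl-CoA dehydrogenase, rose 2.26-fold (log2 fold change 1.18, SE 0.122, adjusted p = 2.65e-07). Acot13, a thioesterase, rose by 0.61 (SE 0.0736, adjusted p = 1.85e-06). Hsd17b10, a mitochondrial dehydrogenase of isoleucine breakdown that is also a subunit of mitochondrial RNase P, showed the largest fall of the list. It ranged from 16.3 to 19.6 CPM in sh-Il22ra1 libraries, against 51.7 to 85.8 CPM in sh-ctrl libraries, a fall of 3.66-fold (log2 fold change -1.87, SE 0.108, adjusted p = 1.44e-10).

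Genes for peroxisome import, membrane and further enzymes gave 20 higher and 7 lower of 40 tested, 67.5% in all beside 51.9% of all tested genes, with a median log2 fold change of 0.223 beside -0.0042 over all tested genes. Amacr, the racemase for branched chains, rose by 0.72 (SE 0.0910, adjusted p = 3.04e-06). Gnpat, which starts ether lipid synthesis, rose by 0.44 (SE 0.0588, adjusted p = 5.39e-06), and Pex19, a chaperone for peroxisomal membrane proteins, rose by 0.34 (SE 0.0486, adjusted p = 1.28e-05). In these 3 genes every sh-Il22ra1 library lay above every sh-ctrl library. Among the 7 that fell were Pxmp2, a peroxisomal membrane protein, with a log2 fold change of -1.10 (SE 0.177, adjusted p = 4.94e-05), the largest change of the list, and Far1, a fatty acyl-CoA reductase, with -0.77 (SE 0.111, adjusted p = 1.41e-05). Both were named after their values were seen.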

How the data were processed

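Total RNA of 12 Min6 samples was read by paired-end sequencing, per the labels' protocols. The authors' deposited files hold whole-number read counts per gene symbol; HISAT2 2.0.5, HTSeq and mm10 are named in the submitters' processing notes, with strand and annotation settings not given in the sources used here. Groups came from the titles. Counts were filtered with filterByExpr (minimum count 10, minimum total 15), scaled by TMM and tested with edgeR 4.0.16 in R 4.3.3 (glmQLFit and glmQLFTest, two-sided, Benjamini-Hochberg over 13102 genes), a procedure tested on simulated data. Only a small part of the genes was changed in that simulation, so it does not cover a comparison in which 51.9% of tested genes passed. Rows of unassigned reads were left out: by library they held 8.71% to 17.3% of reads for no alignment, 3.26% to 4.55% for no feature, 1.81% to 2.13% for ambiguous, 3.91% to 6.82% for low quality and 3.76% to 4.40% for multiple alignments. The SE is the log2 fold change over the square root of F. Symbols were matched to GENCODE M21 (23376 by symbol, 670 by synonym, 375 unmatched) for lengths and positions, and upstream sequences are RefSeq's. Alternatives were RLE and upper-quartile scaling, DESeq2 1.42.0, limma-voom (limma 3.58.1), 2 other filters, a replicate block, leaving out each library, leaving out sh-ctrl replicates 1 and 4, and splines on length and GC content (4 degrees of freedom). No pair of libraries of the same group agreed within sampling noise (smallest chi-square per degree of freedom 3.96), and pairs between the groups were not checked. Members, lists and alternatives were chosen with earlier results of these data known. Named in full were the PPARs, Rxra, Cpt1a, Cpt2, Hadha, Hadhb and every member that passed with a log2 fold change of 0.4 or more in size; beyond the list, up to 4 called genes per list with the smallest p, and Esrra, Ppargc1a, Slc25a20, Plin2, Pdk4 and Angptl4. A few genes that this rule names are not reported here.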

Additional observations from a re-analysis of the deposited data

Results flagged for a closer look

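In 6 of 86 sets of 6 libraries (43 genes in each of 2 groups), the highest or lowest library stood far from its nearest neighbour by Dixon's test at the 95% level; chance gives about 1 in 20. Acsl3 was at 25 CPM in sh-Il22ra1 replicate 1, with the next library at 18.5 CPM, and its call was lost without it. The same library held the highest Acaa1b value, 2.33 CPM beside 1.42 CPM. Acad9 was lowest in sh-Il22ra1 replicate 4, at 24.3 CPM beside 27.1 CPM. In sh-ctrl, replicate 6 had the lowest Hadh value, 114 CPM beside 121 CPM, and the highest Crat value, 56.8 CPM beside 50 CPM. Acaa1a was highest in sh-ctrl replicate 4, at 87.1 CPM beside 65.8 CPM. None of these genes but Acsl3 lost its call when the library named here was left out.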

How the results depend on the processing

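No gene of the set that passed the test changed direction under any of the 21 alternatives; 6 genes that did not pass (Fabp5, Cpt2, Acadsb, Acox2, Hsd17b4 and Etfdh) changed sign under at least 1. Counting Eci2, Crat and Acad11 as peroxisomal gave 7 higher in place of 4 and a median log2 fold change of 0.278; a mean of at least 1 CPM, which left 7 peroxisomal genes, gave 0.264. Leaving out 1 library at a time gave 12 to 17 genes higher and 12 to 13 lower. For mitochondrial genes it gave 4 to 7 higher and 7 lower, with a median of -0.010 to 0.039, and for peroxisomal genes 3 to 4 higher and 0 lower, with a median of 0.169 to 0.209. Over all genes it gave 2881 to 3521 higher and 3239 to 3970 lower. Length and GC offsets moved the median of all genes from -0.0042 to 0.0436, and over all genes 4405 were then higher and 3277 lower; 3 genes of the set lost their call (Cpt1c, Acadm, Eci2) and 3 gained one (Slc27a1, Acox3, Etfb).

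A replicate block kept 15 higher and 12 lower and changed no call in the set; over all genes 3463 were higher and 3566 lower. Same-numbered libraries deviated together weakly (correlations of -0.033 to 0.229), so the numbers were not taken as pairs.

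At 13108494 to 15887448 gene reads a library, 6 genes of the set did not pass the low-count filter. Without a filter, 5 of these were tested and Cd36 was called lower, giving 13 higher and 13 lower.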
